A study of Rattus norvegicus with 2 samples.

Results

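The expression of 9 heat shock protein genes was examined in the hypothalamus of Sprague Dawley rats before and at puberty. The genes were *Hspa1a*, *Hspa1b*, *Hspa8*, *Hspa5*, *Hsp90aa1*, *Hsp90ab1*, *Hspb1*, *Dnajb1* and *Hsph1*, taken by their symbols from the 22777 mRNA genes of the deposited tables, and 9 of 9 were found, each with 1 annotated transcript. They were picked because *Hspa1a* and *Hspa1b* were higher at puberty in these same values, so the difference between the stages is described here and not tested. Female rats were killed on postnatal day 25 (prepubertal) or postnatal day 35 (pubertal, with vaginal opening as the sign). The animals were decapitated under pentobarbital anesthesia, and the methods state that hypothalami were removed at one stage of the estrous cycle. The supplement defines the pubertal rats as those in first estrus, with the cycle phase read from vaginal smears. It gives no cycle stage for the prepubertal rats. The methods name 3 rats per stage, whereas the tables give a single value per gene and stage, and the sources used here do not say whether that value is a pool, a mean or 1 rat. Each stage is called a library below, and since there are no replicates, no spread between animals stands behind any value.

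Heat shock proteins are molecular chaperones, which bind proteins that are unfolded or partly folded and help them to fold, to assemble or to be degraded. HSP70 proteins bind and release short stretches of their clients in a cycle of ATP hydrolysis, which J-domain proteins such as DNAJB1 start and nucleotide exchange factors such as HSPH1 reset. HSP90 proteins act on clients at a later stage of folding, among them the receptors for estrogen, progesterone and glucocorticoids, and small heat shock proteins such as HSPB1 hold unfolded proteins without using ATP. Heat shock factor 1 (HSF1) switches on many of these genes under stress by binding heat shock elements in their promoters, whereas *Hspa5* is a target of the unfolded protein response of the endoplasmic reticulum.

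Levels are given as FPKM, fragment counts scaled to transcript length and to library size, as Cuffdiff estimated them for the authors, and they allow levels of different genes to be set side by side. A log2 ratio below is the pubertal FPKM + 1 divided by the prepubertal FPKM + 1, on the log2 scale. It is positive where the pubertal level was the higher one, and adding 1 FPKM understates the difference of weakly expressed genes. Low FPKM values lay on steps that depended on transcript length, and whole fragment numbers fitted 79.7% of 2096 values below 6 fragments in the prepubertal library and 80.8% of 2416 in the pubertal library (within 0.03 of a whole number, where evenly spread values would give 6%). The steps corresponded to library totals of 20750000 and 16200000 fragments, 1.28 times as many before puberty. The 95% intervals below were computed from the fragment numbers obtained in this way. They cover counting error only and carry nothing of the spread between rats.

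The 9 genes covered a wide range of levels. In the prepubertal library *Hsp90aa1* was the highest at 1337 FPKM, at rank 56 of all genes, followed by *Hsp90ab1* (669), *Hspa5* (375), *Hspa8* (339), *Hsph1* (102), *Dnajb1* (31.1), *Hspb1* (5.26) and *Hspa1a* and *Hspa1b* (1.78 each), a span of 750-fold. The order was the same in the pubertal library, where the span was 247-fold. In both libraries *Hspa8* and *Hspa5* stood far above the inducible *Hspa1a* and *Hspa1b*. In the order of levels, beside the identical *Hspa1a* and *Hspa1b*, only the intervals of *Hspa1b* and *Hspb1* in the pubertal library overlapped (up to 6.69 and from 6.18 FPKM). The summed level of the 9 genes was 2862 FPKM before puberty and 2960 FPKM at puberty, which was 0.370% and 0.368% of the FPKM of all mRNA transcripts.

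**Figure D1:**
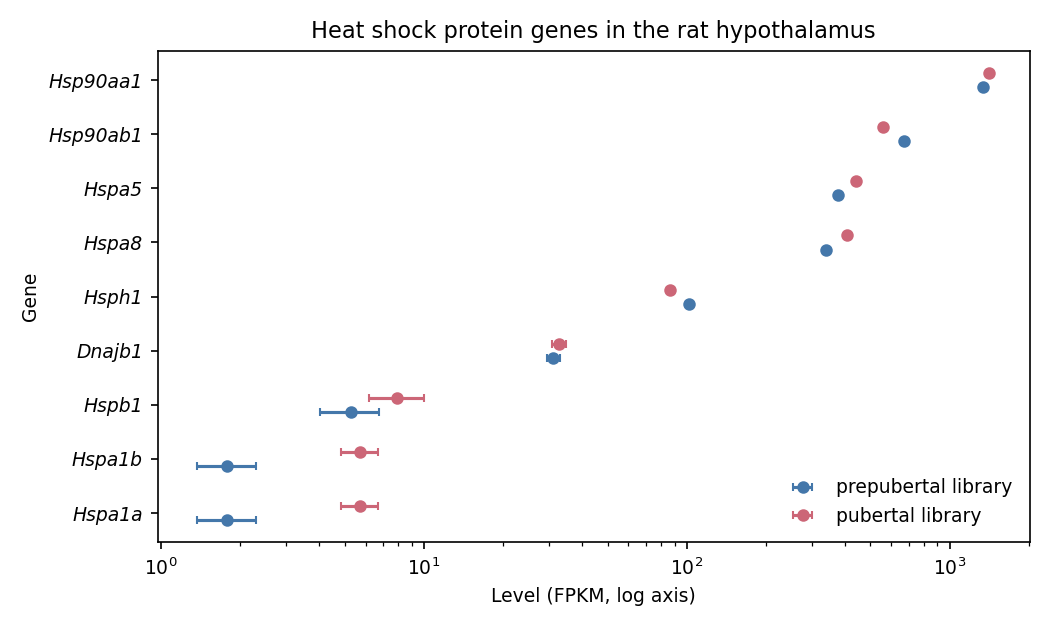
Level of each of the 9 genes in the prepubertal (blue) and pubertal (red) library, in FPKM on a log axis. Points are the deposited values, and bars are 95% Poisson intervals of the fragment number (counting error only). The bars of *Dnajb1* and *Hspb1* overlap between the libraries, and those of the other genes do not.

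*Hspa1a* and *Hspa1b* (ENSRNOG00000050647 and ENSRNOG00000045654) encode the stress-inducible cytosolic HSP70. Each was listed at 1.78 FPKM in the prepubertal library (interval 1.37 to 2.29) and at 5.72 FPKM in the pubertal library (4.85 to 6.69). The pubertal value was 3.21 times the prepubertal one (interval 2.36 to 4.36), a log2 ratio of 1.27. The values corresponded to 62 fragments before puberty and 155 at puberty for each copy. Both copies carried identical values in both libraries and the same length of 1926 nt, a multiple of 3, as in a model without untranslated regions. Of 11847 genes with 1 transcript and at least 1 FPKM in both libraries, 61 shared both values and the length with another gene. The copies are near-identical, so their fragments cannot be told apart, and the pair is better read as 1 measurement than as 2. How much either copy contributed, and whether the same fragments stand behind both values, cannot be told from the tables.

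Only *Hspa1a* and *Hspa1b* of the 9 genes passed a 2-fold difference in FPKM + 1, both higher at puberty. The counting interval of this log2 ratio ran from 0.96 to 1.57 and so reached below 2-fold. Among all 22777 genes, 0.307% were at least 2-fold higher and 0.373% at least 2-fold lower, and the share that was higher was 0.442% among the 13804 genes with a mean of at least 1 FPKM and 0.91% among the 2748 genes whose mean lay between the *Hspa1a* values of both libraries. The genes were selected on this very difference, so the shares are given for scale. The third copy of the cluster in the major histocompatibility complex, *Hspa1l*, whose protein is closely related and best known from testis, was at 0.685 FPKM before puberty and 0.649 FPKM at puberty, a log2 ratio of -0.03. Of 11 genes listed from the region around the copies, *Hspa1l* included, 6 were higher and 5 lower, with a median log2 ratio of 0.02. The genes whose levels in the libraries lay nearest to those of *Hspa1a* (Euclidean distance of log2(FPKM + 1) over 2 libraries) were *Fam72a*, from 1.74 to 4.96 FPKM, *Scgb1c1*, from 2.14 to 5.64 FPKM, and *Cetn4*, from 2.14 to 5.85 FPKM.

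*Hspa8* (ENSRNOG00000032585) encodes HSC70, the HSP70 that cells make at all times. It went from 339 FPKM (interval 334 to 345) in the prepubertal library to 406 FPKM (399 to 413) in the pubertal library, 1.20-fold, with a log2 ratio of 0.26. The inducible copies were therefore a small fraction of the constitutive gene. The level of *Hspa1a* alone was 0.525% of that of *Hspa8* before puberty and 1.41% at puberty. The summed level of both copies was 1.05% and 2.82%, a sum that holds only if no fragment was counted in full for both. Either share was 2.68 times as high at puberty, a ratio that does not depend on how the libraries were scaled. *Hspa8* has processed copies in mammalian genomes, so some of its fragments can have been assigned elsewhere.

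*Hspa5* (ENSRNOG00000018294) encodes BiP, the HSP70 of the endoplasmic reticulum. It was at 375 FPKM (interval 370 to 381) before puberty and 439 FPKM (432 to 446) at puberty, 1.17-fold, a log2 ratio of 0.23. Relative to *Hspa8* it kept nearly the same level, 1.11 times in the prepubertal and 1.08 times in the pubertal library. Relative to *Hsp90b1*, the HSP90 of the same compartment, which went from 255 to 231 FPKM, it went from 1.47 times to 1.90 times.

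*Hsp90aa1* and *Hsp90ab1* encode the alpha and beta forms of cytosolic HSP90, of which alpha is the more inducible. *Hsp90aa1* (ENSRNOG00000007219) was at 1337 FPKM (interval 1327 to 1347) and then at 1416 FPKM (1404 to 1427), a log2 ratio of 0.08. *Hsp90ab1* (ENSRNOG00000019834) was at 669 FPKM (661 to 676) and then at 561 FPKM (553 to 569), a log2 ratio of -0.25. On the deposited scale the alpha form was slightly higher and the beta form lower, and with *Actb* made equal the log2 ratio of the beta form was 0.15. The ratio of alpha to beta within a library was 2.0 before puberty and 2.52 at puberty, 1.26 times as high, which no scaling between the libraries can alter. Among the receptors that HSP90 serves, *Esr1* and *Esr2*, the estrogen receptors, went from 1.86 to 2.21 FPKM and from 0.925 to 1.56 FPKM, *Pgr*, the progesterone receptor, from 4.51 to 5.64 FPKM and *Nr3c1*, the glucocorticoid receptor, from 102 to 98.0 FPKM.

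Partners of HSP70 among the 9 genes were *Dnajb1* and *Hsph1*. *Dnajb1* (ENSRNOG00000021824), the J-domain protein HSP40, was at 31.1 FPKM (interval 29.4 to 32.9) in the prepubertal library and 32.6 FPKM (30.6 to 34.7) in the pubertal library, and the interval of its fold, 0.964 to 1.14, included 1. *Hsph1* (ENSRNOG00000000902), an exchange factor of the HSP110 type, was lower at puberty, at 102 FPKM (99.2 to 104) and then 86.6 FPKM (84.0 to 89.1), a log2 ratio of -0.23. Both values depended on the scaling, and with *Actb* made equal the log2 ratio was 0.46 for *Dnajb1*, in place of 0.07, and 0.17 for *Hsph1*, the opposite direction. Per unit of *Hspa8*, the level of *Hsph1* went from 30.0% to 21.3% and that of *Dnajb1* from 9.17% to 8.03%.

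*Hspb1* (ENSRNOG00000023546) encodes HSP27, a small heat shock protein that in brain is found in blood vessels and reactive glia. Its level was 5.26 FPKM (interval 4.02 to 6.77) before puberty and 7.89 FPKM (6.18 to 9.99) at puberty, 1.5-fold with a log2 ratio of 0.51. With 60 and 71 fragments it was, beside *Hspa1a*, the least precise value, and the interval of the fold ran from 1.05 to 2.16. The intervals of the 2 levels overlapped. A log2 ratio of 0.32 or more was found for 3 of the 9 genes, *Hspb1*, *Hspa1a* and *Hspa1b*, and one of -0.32 or less for 0 of 9. Among all genes 5.99% were past this size in the higher and 8.04% in the lower direction. These shares are given for scale, since *Hspa1a* and *Hspa1b* were picked for their difference and are better read as 1 measurement. Of the other 7 genes only *Hspb1* was past this size.

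Over the 9 genes, 7 were higher and 2 lower at puberty, and the median log2 ratio was 0.23. The median was 0.00 over all genes and -0.01 over genes with a mean of at least 1 FPKM, whose quartiles were -0.17 and 0.14. Without *Hspa1a* and *Hspa1b* the median of the other 7 genes was 0.08. *Actb*, which encodes beta-actin and is a common reference gene, went from 763 to 576 FPKM. Multiplying the pubertal values by 1.32 makes *Actb* equal and adds 0.41 to the log2 ratio of well-expressed genes, and with it the log2 ratios of *Hsp90ab1* and *Hsph1* changed sign, to 0.15 and 0.17. With this scaling 9 of the 9 genes were higher, and the lists below moved towards higher levels in the same way. The direction of *Hsp90ab1* and *Hsph1* between the stages thus rested on the scaling, whereas their level relative to *Hspa8* in the same library was lower at puberty whatever the scaling. Of 12 reference genes listed 8 were higher at puberty, among them *B2m*, from 174 to 231 FPKM, and *Hprt1*, from 140 to 168 FPKM.

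**Figure D2:**
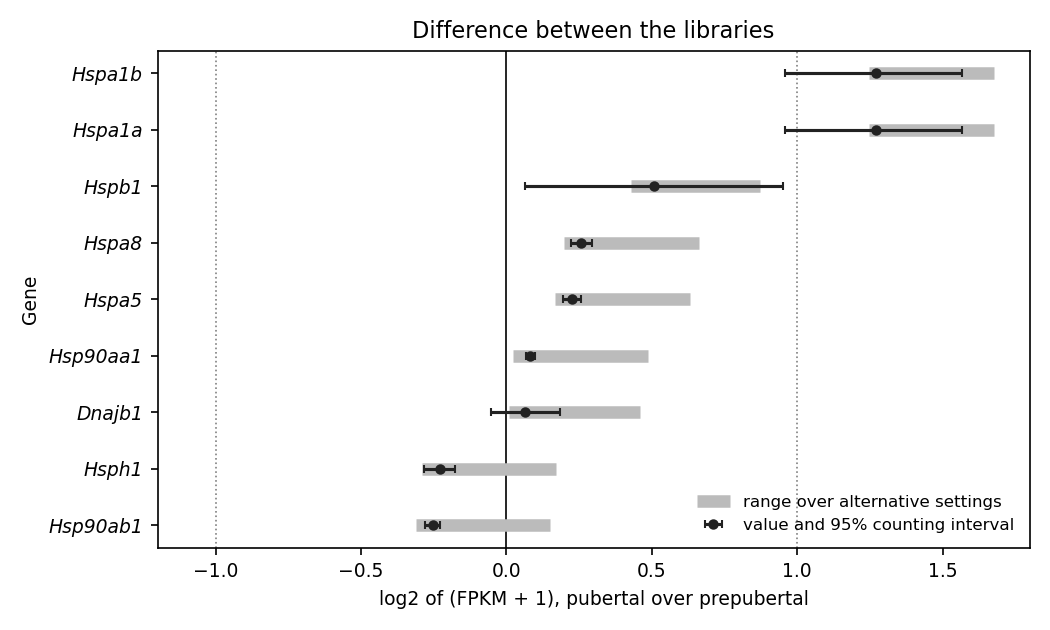
Difference between the libraries for each of the 9 genes, as log2 of (FPKM + 1) in the pubertal over the prepubertal library. Points are the values with 95% counting intervals, grey bars span the 10 alternative settings, dotted lines mark a 2-fold difference, and the bars of *Hsph1* and *Hsp90ab1* extend across 0.

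**Figure D3:**
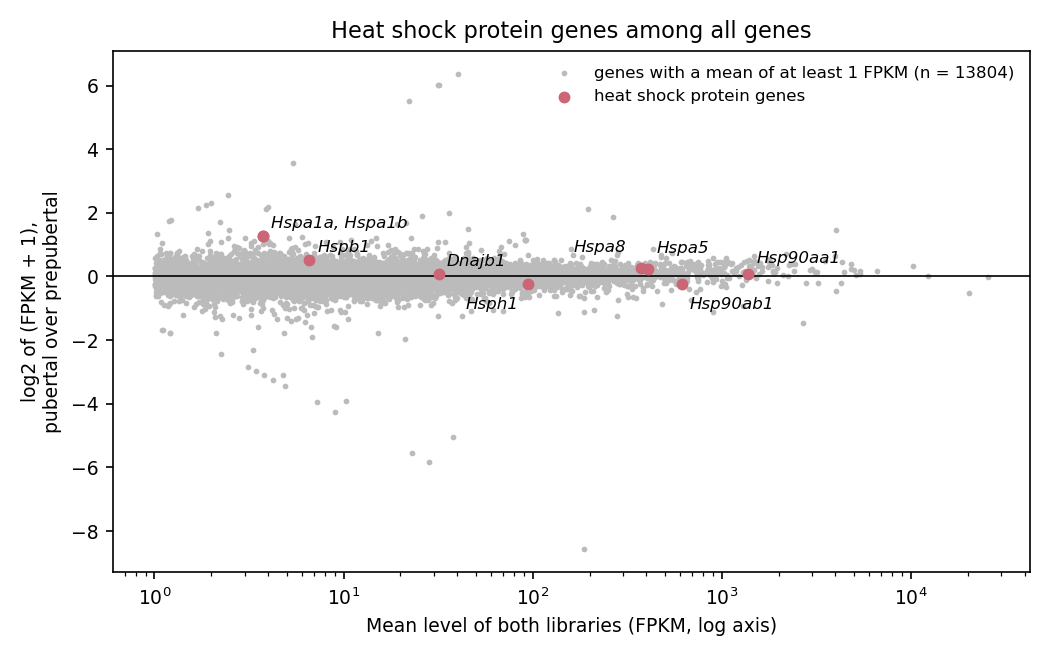
Mean level of both libraries (FPKM, log axis) against the log2 ratio of (FPKM + 1), pubertal over prepubertal, for the 13804 genes with a mean of at least 1 FPKM (grey) and the 9 heat shock protein genes (red). *Hspa1a* and *Hspa1b* share 1 point at a log2 ratio of 1.27, and the others lie between -0.25 and 0.51.

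The promoters of the genes were read next, since HSF1 and the unfolded protein response act through short elements there. RefSeq sequences on build GRCr8 were at hand for 7 of the 9 genes (not for *Hspa1b* and *Hsp90aa1*), and the 250 bases before the annotated start were searched on both strands for the heat shock element in the forms GAANNTTC and TTCNNGAA and for the endoplasmic reticulum stress element, CCAAT and CCACG separated by 9 bases. Neighbouring matches of the heat shock forms can overlap, as 3 alternating units give 2 matches. A heat shock form was present in 4 of the 7 promoters and in 13.5% of all 33469 promoters of this length, and 2 or more matches in 1.75% of them. The 5 promoters below show *Hspa8* and *Hsph1*, which hold the most matches, *Hspb1* and *Hspa1a*, which stood highest at puberty relative to the prepubertal library, and *Hspa5*, which holds the stress element of the endoplasmic reticulum. Capitals mark the matches, and each sequence runs from 250 bases before the start to the base before it.
Hspa8 (GRCr8, chr8:50080264-50080513, plus strand): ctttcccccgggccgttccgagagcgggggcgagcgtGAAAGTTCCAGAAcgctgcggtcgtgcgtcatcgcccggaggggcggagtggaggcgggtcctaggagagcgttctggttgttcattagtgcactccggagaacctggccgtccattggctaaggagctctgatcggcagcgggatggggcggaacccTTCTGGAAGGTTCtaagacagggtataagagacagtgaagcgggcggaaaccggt
Hsph1 (GRCr8, chr12:10427118-10427367, plus strand): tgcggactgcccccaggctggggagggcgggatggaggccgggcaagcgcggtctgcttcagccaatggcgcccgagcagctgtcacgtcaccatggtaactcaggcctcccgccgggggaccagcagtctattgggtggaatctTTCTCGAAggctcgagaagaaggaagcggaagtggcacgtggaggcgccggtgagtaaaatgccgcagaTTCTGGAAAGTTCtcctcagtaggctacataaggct
Hspb1 (GRCr8, chr12:26432302-26432551, minus strand): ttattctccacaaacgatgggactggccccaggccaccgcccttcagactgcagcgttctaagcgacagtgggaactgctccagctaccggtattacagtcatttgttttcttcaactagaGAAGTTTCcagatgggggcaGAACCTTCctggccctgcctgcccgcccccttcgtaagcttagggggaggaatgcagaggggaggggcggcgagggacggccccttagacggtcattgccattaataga
Hspa1a (GRCr8, chr20:3859506-3859755, plus strand): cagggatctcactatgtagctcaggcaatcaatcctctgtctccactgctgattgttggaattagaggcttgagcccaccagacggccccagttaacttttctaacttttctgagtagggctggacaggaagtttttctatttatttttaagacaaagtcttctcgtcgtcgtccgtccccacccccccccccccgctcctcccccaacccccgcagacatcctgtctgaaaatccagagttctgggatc
Hspa5 (GRCr8, chr3:38452766-38453015, plus strand): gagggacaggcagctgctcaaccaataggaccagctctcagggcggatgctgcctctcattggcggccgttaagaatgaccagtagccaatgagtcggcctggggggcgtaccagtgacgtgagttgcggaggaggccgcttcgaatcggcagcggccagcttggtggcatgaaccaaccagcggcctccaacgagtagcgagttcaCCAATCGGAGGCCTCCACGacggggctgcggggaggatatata

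In *Hspa8* the 4 matches formed 2 overlapping pairs, at 213 to 201 and at 55 to 43 bases before the start. *Hsph1* held 3 matches, of which 2 formed an overlapping pair 36 to 24 bases before the start, and *Hspb1* held 2 separate ones at 129 and 109 bases. Overlapping pairs of this kind were present in 0.663% of all promoters. *Dnajb1* held 1 match, 11 bases before its start, and *Hsp90ab1* none of either element in this window. *Hspa5* held the full stress element 43 to 25 bases before its start, which was found in 22 of the 33469 promoters (0.0657%). The window of *Hspa1a* held neither element, which says only that these letters are absent from the 250 bases before this annotated start.

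The remaining genes of the chaperone families were set beside the 9. Lists of HSP70, HSP90, small heat shock, DNAJ, chaperonin and co-chaperone genes held 100 further listed genes, of which 60 were higher, 37 lower and 3 at 0 in both libraries, with a median log2 ratio of 0.06. A log2 ratio of 0.32 or more was found for 10 of the 100 genes and one of -0.32 or less for 4 (all genes, 5.99% and 8.04%). A 2-fold difference was found for 1 of the 100, *Cryab*, the small heat shock protein alpha B crystallin of oligodendrocytes and astrocytes. *Cryab* went from 21.8 FPKM before puberty to 46.8 FPKM at puberty, a log2 ratio of 1.07.

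Within the HSP70 family, 6 of 15 genes were higher and 9 lower, and the median was -0.03. After scaling to *Actb* 13 of the 15 were higher and the median was 0.30. *Hspa12a* and *Hspa12b*, distant members of the family, went from 38.7 to 29.2 FPKM and from 3.50 to 2.53 FPKM, and *Hspa9*, the mitochondrial form, from 151 to 131 FPKM. On the deposited scale these genes thus went the opposite way to *Hspa1a*, *Hspa1b*, *Hspa8* and *Hspa5*. Of the 4 HSP90 genes, 2 were higher and 2 lower, with a median of -0.04, which became 0.01 with equal medians of the libraries.

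Of 10 small heat shock genes, 6 were higher, 3 lower and 1 (*Cryaa*, a lens crystallin) at 0 in both libraries, with a median log2 ratio of 0.13. Only 5 of these genes had a mean of at least 1 FPKM, and their median was 0.41. Beside *Cryab* and *Hspb1*, *Hspb8*, a partner of the co-chaperone BAG3, went from 16.0 to 21.6 FPKM, and *Bag3* itself from 2.12 to 2.97 FPKM. *Hspb3* went from 0.476 to 1.48 FPKM, values that rest on few fragments.

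All 10 chaperonin genes were higher at puberty, with a median log2 ratio of 0.19, but with each library scaled to the same FPKM total 7 of 10 were. The largest of these differences were those of *Hspe1*, the co-chaperonin of mitochondria, from 251 to 329 FPKM, and of *Cct5* and *Cct4*, subunits of the cytosolic chaperonin that folds actin and tubulin, from 203 to 255 FPKM and from 147 to 175 FPKM. The DNAJ genes were spread around 0, with 26 higher, 19 lower and 2 equal, and a median of 0.04 that became 0.00 with each library scaled to the same FPKM total. *Dnajc30* and *Dnajc25* stood apart in this list, from 8.24 to 15.1 FPKM and from 3.14 to 5.93 FPKM, and *Dnajb3* went from 2.07 to 1.05 FPKM. *Dnajc1* followed in the higher direction, from 10.4 to 13.7 FPKM, and *Dnajc13* and *Dnajb5* in the lower direction, from 13.1 to 10.4 FPKM and from 14.3 to 11.8 FPKM.

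**Figure D4:**
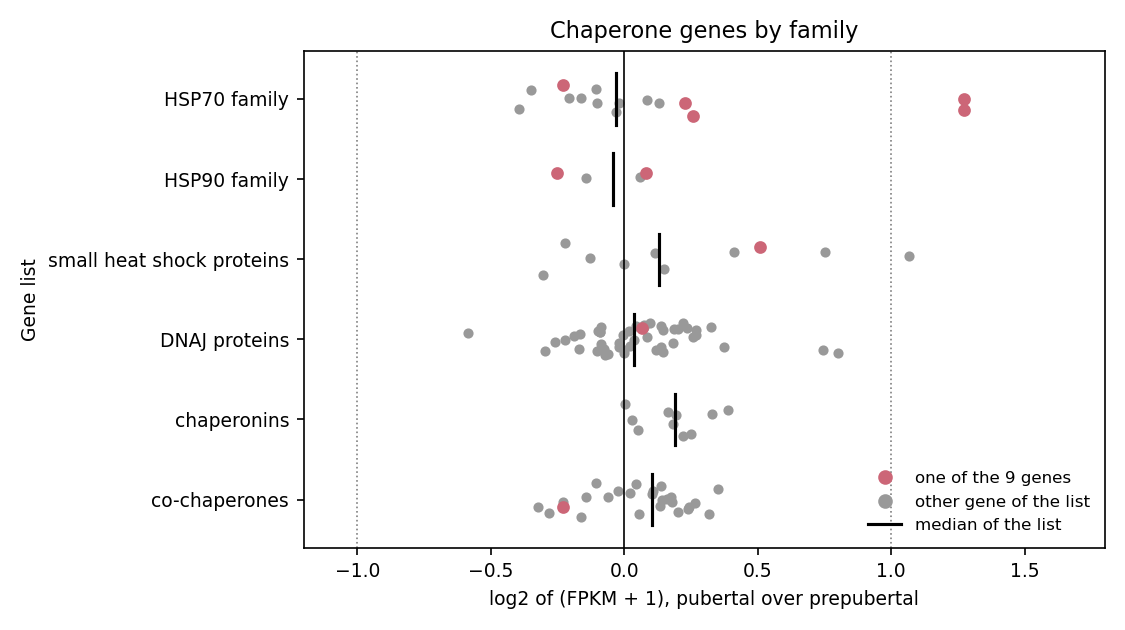
log2 ratio of (FPKM + 1), pubertal over prepubertal, for each gene of 6 chaperone lists, with the 9 genes in red, other genes in grey and the median of each list as a black line. Dotted lines mark a 2-fold difference, which *Hspa1a*, *Hspa1b* and *Cryab* passed, and points are spread vertically for legibility. *Hsph1* appears in the HSP70 and the co-chaperone list.

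Of 23 listed genes that HSF1 can induce, 8 of the 9 genes among them, 19 were higher and 4 lower at puberty (*Hsp90ab1*, *Hsph1*, *Hspa4l* and *Dnaja4*), with a median log2 ratio of 0.18, and 7 had a log2 ratio of 0.32 or more (all genes, 5.99%). These 7 include *Hspb1* and the pair *Hspa1a* and *Hspa1b*, for which the genes were picked and which is better read as 1 measurement. The others were *Cryab*, *Hspb8*, *Hspe1* and *Bag3*. Of the 23 genes, 17 were higher and 6 lower with each library scaled to the same FPKM total, and 23 were higher with *Actb* made equal. *Hsf1* itself was at 6.58 and 7.01 FPKM, and *Hsf2* at 20.2 and 17.7 FPKM. Of 30 genes of the endoplasmic reticulum chaperones and the unfolded protein response, which include *Hspa5*, 17 were higher and 13 lower, with a median of 0.06. *Sdf2l1* and *Pdia4*, a cofactor and a disulfide isomerase of that compartment, went from 18.3 to 24.0 FPKM and from 57.5 to 70.1 FPKM, while *Edem1* and *Pdia3* went from 9.08 to 6.18 FPKM and from 63.1 to 49.1 FPKM. With *Actb* made equal 28 of the 30 were higher, and the median was 0.46. Of 11 mitochondrial chaperone genes 8 were higher, with a median of 0.05, but 5 were higher and 6 lower with each library scaled to the same FPKM total.

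Other stress-related genes were read in the same way. Of 21 immediate early genes, which answer to neuronal activity, 7 were higher and 14 lower (median log2 ratio -0.08), but 13 were higher and 8 lower with *Actb* made equal. *Fos* was at 11.9 and 11.2 FPKM, and the largest differences were those of *Nr4a3*, from 1.45 to 0.583 FPKM, *Arc*, from 4.41 to 2.74 FPKM, and *Egr1*, from 3.76 to 2.39 FPKM, in the lower direction. In the higher direction they were those of *Fosl2*, from 4.75 to 6.60 FPKM, *Junb*, from 9.77 to 12.9 FPKM, and *Ier5*, from 5.46 to 6.66 FPKM. Of 14 genes induced by glucocorticoids 10 were higher, with a median of 0.16, led by *Sgk1* from 38.3 to 68.3 FPKM, and of 13 genes of oxidative and general stress 7 were higher, with a median of 0.00, but 3 with each library scaled to the same FPKM total and 12 with *Actb* made equal. Of 28 proteasome and ubiquitin genes 21 were higher, with a median of 0.17, but 18 with each library scaled to the same FPKM total and 27 with *Actb* made equal.

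The tissue of the libraries was checked with marker lists. All 21 markers of hypothalamic neurons were listed above 0, 18 were higher at puberty, with a median log2 ratio of 0.24, and their sum was 3010 FPKM before and 4489 FPKM at puberty. *Pmch*, from 1675 to 2723 FPKM, and *Oxt*, from 411 to 686 FPKM, made up most of this difference. Some other lists moved with the stage. All 7 listed genes of red blood cells were higher at puberty, with a sum of 6847 FPKM before and 13105 FPKM at puberty, and of 8 pituitary genes 6 were higher, with *Prl* and *Fshb* listed at 0 before puberty and a sum of 31.9 and 44.6 FPKM. All 8 microglia genes were higher, with sums of 255 and 302 FPKM, but 7 of 8 were with each library scaled to the same FPKM total. All 8 genes of fibroblasts and meninges were lower, with sums of 127 and 89.9 FPKM. For endothelium 6 of 8 genes were lower (median -0.13), although the sums were 150 and 154 FPKM, with *Slco1a4* going from 29.0 to 43.5 FPKM. For smooth muscle and pericytes 5 of 7 were lower, with sums of 114 and 117 FPKM that rested on *Rgs5*, from 70.9 to 76.3 FPKM. For neurons 9 of 10 were lower, with sums of 2652 and 2453 FPKM. With *Actb* made equal, 2 of these endothelial, 1 of the smooth muscle, 2 of the neuronal and 4 of the meningeal genes were lower. The sums for astrocytes were 3016 and 3129 FPKM and those for oligodendrocytes 12984 and 14007 FPKM. Ependyma and tanycytes gave 176 and 172 FPKM, and choroid plexus 40.8 and 35.6 FPKM. For thalamus and telencephalon the sums were close, at 519 and 526 FPKM, because *Calb2*, from 323 to 374 FPKM, made up most of them, but 7 of the 12 genes were lower at puberty, 6 of them with a log2 ratio of -0.32 or less and 0 with 0.32 or more (median -0.30). *Slc17a7*, the glutamate transporter of cortical neurons, went from 26.2 to 12.8 FPKM, *Neurod6* from 5.08 to 2.36 FPKM and *Tcf7l2*, a thalamic marker, from 19.9 to 12.2 FPKM. The part of blood, pituitary, microglia, meninges or neighbouring brain regions in the levels of the 9 genes was not tested, and more cells of a type and more RNA per cell cannot be told apart in such tissue.

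Transcript length also went with the difference between the libraries. Over genes with a mean of at least 1 FPKM, the median log2 ratio was 0.07 in the shortest and -0.13 in the longest of 10 equal classes of transcript length. *Hspb1*, at 806 nt in the second class, had a log2 ratio of 0.43 relative to the median of its class, *Hsph1*, at 3423 nt in the ninth class, one of -0.16, and *Hspa1a* and *Hspa1b* one of 1.246. The direction of each of the 9 genes was the same after this centring.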

How the data were processed

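RNA of rat hypothalamus was depleted of ribosomal RNA and sequenced by the authors as strand-specific paired-end libraries. Reads were aligned with TopHat and assembled with Scripture and Cufflinks. The deposited FPKM values were estimated by the authors with Cuffdiff (version 2.1.1 in the submitters' processing notes) and are scaled for depth and length. The submitters' notes name build Rnor_5.0, whereas the methods link a later annotation. The table of the comparison also holds the authors' log2 ratios, p-values and q-values, which were not used, and a length in nt.

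Transcripts were summed per gene. The pseudocount was 1 FPKM, and a gene was counted as different past 2-fold or past a log2 ratio of 0.32 in FPKM + 1. With 1 column per stage no test was made. The members and gene lists were chosen with earlier results of these data known. The rule for named genes took from each list the 3 largest differences per direction with a mean of at least 1 FPKM. The text names part of these, and a few further family members, receptors and stress genes (such as *Fos*, *Hsf1* and *Hspb3*) were chosen after their values were seen. Fragment numbers were obtained by fitting a library total and a length offset (transcripts of 600 to 3000 nt) so that values below 6 fragments were whole, and the procedure was tested on simulated data. Poisson intervals of levels and Clopper-Pearson intervals of folds are exact, at 95%. Alternatives were other pseudocounts (0.1 and 0.01), scalings, filters, the highest transcript, the FPKM of the comparison table (different for 13 mRNA transcripts) and, added after the data were examined, centring by transcript length. The scripts ran under Python 3.11.15 with scipy 1.17.1 for the intervals, pandas 2.3.3, numpy 2.4.6 and matplotlib 3.10.9.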

Additional observations from a re-analysis of the deposited data

How the results depend on the processing

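With 1 library per stage, no setting adds the spread between rats. *Hspa1a* and *Hspa1b* were picked for their difference, and the filters, the choice of transcript and smaller pseudocounts could not have taken them below 2-fold. Under the scalings and the centring by transcript length, which could move them either way, their log2 ratios lay between 1.246 and 1.62. They were 1.63 and 1.68 with pseudocounts of 0.1 and 0.01 FPKM, and 1.62 with *Actb* made equal. The median of the 9 genes was 0.28 with equal medians of the libraries, 0.63 with equal *Actb* and 0.15 with *Hspa1a* and *Hspa1b* counted as 1 gene. With equal *Actb*, 7 of the 9 genes had a log2 ratio of 0.32 or more, and the median of all genes with a mean of at least 1 FPKM became 0.36, so that most of this shift was shared by all genes.

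The counts over all genes moved with the pseudocount and with the scaling. With 0.1 FPKM, 548 genes were 2-fold higher and 641 lower, and 2680 and 3411 were past a log2 ratio of 0.32 or -0.32. With 0.01 FPKM these counts were 1104 and 1238, and 2929 and 3690. With equal *Actb* they were 222 and 53, and 8346 and 476. The medians of the lists with equal *Actb* were 0.30 (HSP70), 0.36 (HSP90), 0.49 (small heat shock proteins), 0.42 (DNAJ), 0.59 (chaperonins), 0.51 (co-chaperones), 0.34 (heat shock factors), 0.58 (HSF1-inducible genes), 0.46 (endoplasmic reticulum) and 0.43 (mitochondria). With equal medians the HSP90 median was 0.012 and that of the chaperonins 0.25, and with equal FPKM totals the chaperonin median was 0.13. The small heat shock genes above 0 in both libraries had a median of 0.28. Filters on low values, the highest transcript and the other table left the values of the 9 genes as they were. No paired analysis was possible because each stage has 1 column. The precision of *Hspa1a*, *Hspa1b* and *Hspb1* is limited by 60 to 155 fragments.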
